A study of Homo sapiens with 47 samples.

Results

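The 272 regions described here lie on chromosome 10 with a start between 30 and 80 Mb (GRCh38), out of 19535 regions in which histone marks were counted. The interval was chosen by its measured input density, which is high against the other chromosomes, and its level against them is therefore given as a description with no test. Another 435 regions of chromosome 10 lie outside it, 141 below 30 Mb and 294 beyond 80 Mb, and 18828 lie on other chromosomes. All samples were PC3 cells, an established human prostate cancer line, transduced with an empty vector, with DDC (the decarboxylase that makes serotonin and dopamine) or with SLC6A4 (the serotonin transporter). Nothing in the labels says whether a line is 1 clone or a pool, which promoter drives the transgene, or whether the 3 libraries of a group came from separate cultures, so p-values measure only the spread between these libraries. For each line 3 ChIP libraries each of H3K4me3 and H3K4me3Q5ser and 3 RNA libraries were used, with 3 input libraries (the same chromatin without antibody) for empty vector and DDC only. CUT&Tag of H3K4me3 added single libraries of a control, of the SLC6A4 line and of that line carrying a hairpin against TGM2 (shTGM2).

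Trimethylation of lysine 4 on histone H3 marks active and poised promoters, most of all those rich in CG dinucleotides. The neighbouring glutamine can carry serotonin, which transglutaminase TGM2 attaches, and the combined mark is H3K4me3Q5ser. The density of input reads over a region follows the amount of DNA in the cells and also GC content, chromatin openness and how uniquely reads map. PC3 cells carry rearranged chromosomes and more DNA than a normal diploid cell. Long stretches of raised input are commonly read as gained DNA. The amount of DNA was not measured by other means here.

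The 2 transgenes were checked first. DDC had 23, 25 and 31 reads in the DDC line and at most 3 in any other library. SLC6A4 had 94, 120 and 130 reads in the SLC6A4 line and at most 1 elsewhere. Keratins KRT8, KRT18 and KRT7 were present in all lines (10.4 to 84.2 RPKM), while EPCAM (0.536 to 2.19 RPKM) and CDH1 (0.0298 to 0.461) were low. KLK3, a marker of luminal prostate cells, was 0. Of 8 markers of other cells PTPRC, CD3E, VWF and DCN were at or near 0, COL3A1 and COL1A1 were at most 0.249, CD68 was 2.83 to 3.48 and PECAM1 1.53 with empty vector and 0.499 and 0.292 in the DDC and SLC6A4 lines. Libraries held 3.43 to 5.81 M read pairs in regions for H3K4me3, 13.5 to 24.8 M for H3K4me3Q5ser and 1.40 to 1.83 M for input, and 17.3 to 21.7 M RNA reads in genes. Replicate ChIP and input libraries differed by little more than sampling noise, and in 6 of the 8 groups a chi-square test over regions found no difference beyond it between the most alike pair (chi-square per degree of freedom 0.992 to 1.02, p over 0.05). Such pairs are counted as 1 sample where that is stated below, an alternative chosen after seeing the data.

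Of the 272 regions, 162 lie within 1000 bp of a transcription start, 72 in introns, 10 in exons and 28 between genes. Their median length was 4812 bp (167 to 36656 bp) against 3991 bp on other chromosomes, and their median GC content was 44.2% against 46.9%. The interval holds the starts of 895 annotated genes, 225 of them protein-coding, and 263 of the 895 have a member region within 1000 bp.

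The sequences below were chosen because GC content moves with the difference of the SLC6A4 line from empty vector in these regions. They are the 250 bases before a start from RefSeq (GRCh38.p14), 5′ to 3′ on the strand of the gene, and stretches of 2 intron regions from the GRCh38 sequence on its forward strand, with CG dinucleotides in capitals. Of the 6 genes looked up, 4 had an entry. DKK1 has 1 start (chr10:52314031-52314280, plus strand, 18 CG).
DKK1: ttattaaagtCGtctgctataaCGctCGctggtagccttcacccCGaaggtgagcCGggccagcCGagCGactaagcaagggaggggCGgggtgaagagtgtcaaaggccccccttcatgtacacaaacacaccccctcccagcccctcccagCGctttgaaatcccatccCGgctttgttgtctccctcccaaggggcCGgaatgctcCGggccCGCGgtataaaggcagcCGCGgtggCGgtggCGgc
JMJD1C has 3 starts in member regions. It is printed at its outermost start (chr10:63521891-63522140, minus strand, 35 CG) and at an inner start within the intron region described below (chr10:63269244-63269493, minus strand, 5 CG). The start between them (chr10:63465978-63466227, minus strand, 34 CG) lies in another member region and is not printed.
JMJD1C outer: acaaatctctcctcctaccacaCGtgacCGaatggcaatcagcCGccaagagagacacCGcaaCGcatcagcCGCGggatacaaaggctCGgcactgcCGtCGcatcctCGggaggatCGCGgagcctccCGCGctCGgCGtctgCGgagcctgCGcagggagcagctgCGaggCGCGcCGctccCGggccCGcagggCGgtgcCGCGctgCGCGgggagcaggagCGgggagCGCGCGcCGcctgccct
JMJD1C inner: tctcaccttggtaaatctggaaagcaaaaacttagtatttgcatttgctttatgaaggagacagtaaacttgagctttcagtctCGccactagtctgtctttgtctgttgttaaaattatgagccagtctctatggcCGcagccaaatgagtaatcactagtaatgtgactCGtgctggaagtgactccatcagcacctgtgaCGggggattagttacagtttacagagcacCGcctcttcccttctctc
EPC1 likewise has a CG-rich start (chr10:32347159-32347408, minus strand, 40 CG) and another with fewer (chr10:32378770-32379019, minus strand, 9 CG).
EPC1 CG-rich: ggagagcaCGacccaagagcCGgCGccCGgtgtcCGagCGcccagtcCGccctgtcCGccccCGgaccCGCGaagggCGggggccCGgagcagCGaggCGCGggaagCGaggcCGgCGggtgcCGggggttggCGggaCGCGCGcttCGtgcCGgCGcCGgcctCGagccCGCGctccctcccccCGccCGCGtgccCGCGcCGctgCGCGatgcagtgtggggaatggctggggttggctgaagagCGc
EPC1 second: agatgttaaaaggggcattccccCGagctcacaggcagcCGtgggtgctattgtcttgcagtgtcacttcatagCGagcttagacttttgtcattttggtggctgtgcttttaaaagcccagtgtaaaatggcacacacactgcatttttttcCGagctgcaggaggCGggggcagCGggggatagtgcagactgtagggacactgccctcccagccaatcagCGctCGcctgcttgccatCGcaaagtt
CAMK2G has 1 start (chr10:73874556-73874805, minus strand, 32 CG), the most GC-rich of those printed.
CAMK2G: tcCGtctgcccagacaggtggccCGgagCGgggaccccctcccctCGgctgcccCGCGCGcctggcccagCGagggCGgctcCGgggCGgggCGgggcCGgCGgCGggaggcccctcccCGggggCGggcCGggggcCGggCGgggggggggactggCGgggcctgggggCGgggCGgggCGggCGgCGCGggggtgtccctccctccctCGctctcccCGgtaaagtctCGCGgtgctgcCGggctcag
The middle of the CTNNA3 intron region (chr10:66799472-66799771, 2 CG) and the whole PRKG1 intron region (chr10:51868090-51868266, 1 CG) are at the other end.
CTNNA3: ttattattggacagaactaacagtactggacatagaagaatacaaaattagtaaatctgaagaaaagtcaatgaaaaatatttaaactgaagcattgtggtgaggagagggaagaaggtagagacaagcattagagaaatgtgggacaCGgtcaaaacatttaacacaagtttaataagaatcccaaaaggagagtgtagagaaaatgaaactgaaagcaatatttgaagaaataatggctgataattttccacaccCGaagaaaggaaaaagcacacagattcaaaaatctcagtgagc
PRKG1: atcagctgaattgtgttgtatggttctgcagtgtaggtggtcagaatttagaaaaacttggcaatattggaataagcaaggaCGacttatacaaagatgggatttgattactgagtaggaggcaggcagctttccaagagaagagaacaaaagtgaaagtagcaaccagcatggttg
Across 35116 RefSeq windows of 250 bases the median number of CG was 11, and 42.6% held the GC box GGGCGG on either strand. CAMK2G held 9 such boxes, which may overlap, DKK1 1 and the inner JMJD1C start 0. A match is only a description of the letters.

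Input density was expressed as read pairs per kb, divided by the median over regions of other chromosomes in the same library, so that 1 is the level of those chromosomes. In empty-vector cells the median of the 272 regions was 2.57, 2.59 and 2.50 in the 3 libraries, and in DDC cells 2.49, 2.45 and 2.40. The same libraries gave 0.717 to 0.802 for chromosome 10 below 30 Mb and 0.731 to 0.754 beyond 80 Mb. In empty-vector cells 167 of the 272 regions (61.4%) had a density of at least 2, against 9.02% of regions on other chromosomes.

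**Figure D1:**
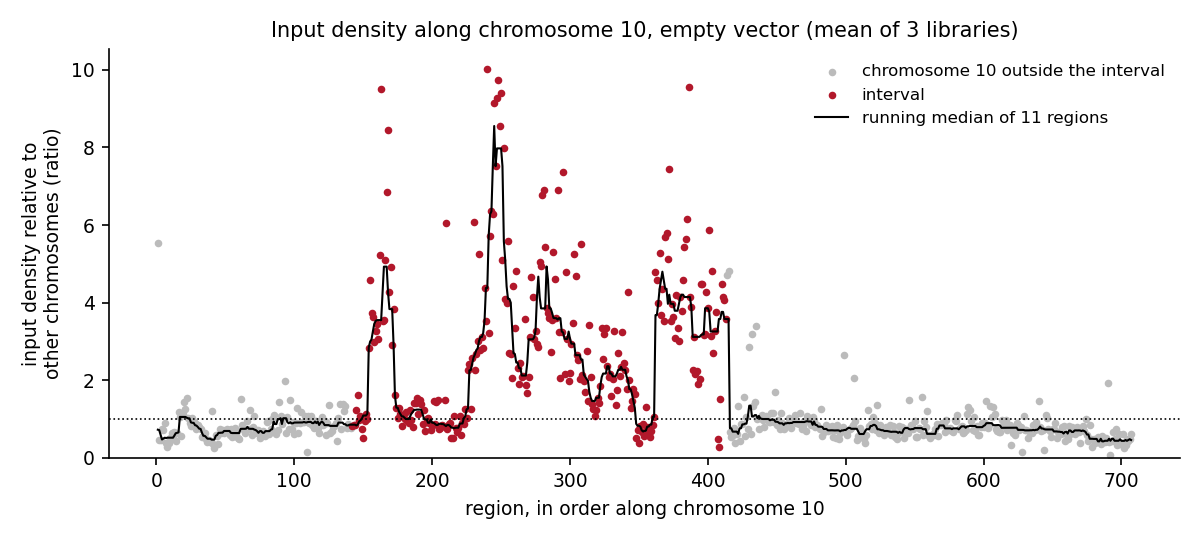
Input density of the 707 regions of chromosome 10 in order along the chromosome (x, region number; y, ratio to the median of other chromosomes, mean of the 3 empty-vector libraries). Red points are the 272 regions of the interval, grey points the rest of chromosome 10, the black line a running median of 11 regions and the dotted line a ratio of 1; 3 raised blocks are parted by stretches near 1.

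The interval was not evenly high. Its first regions, at JCAD, MTPAP, MAP3K8, ZEB1 (a repressor of epithelial genes) and KIF5B (a kinesin heavy chain), lay between 0.514 and 1.63. A running median rose from 1.13 to 2.84 between the region starts 32049072 (KIF5B) and 32339684 (EPC1), and fell from 2.92 to 1.61 between 37848652 (ZNF248) and 37973315. The 53 regions from 40 to 50 Mb had a median of 0.988, so those regions do not bear out a high signal. At 49540789 the median again passed 2. It fell below 2 and returned 3 times between 68521839 and 69625418, stayed below 2 from 70402165 (1.06 at 72690663), and rose to 3.98 at 73087698 (P4HA1). Near the end it fell to 1.52 at 79650427 and rose to 4.06 at 79820655. That dip rests on short regions of 229, 167 and 235 bp with few read pairs. At 79650427 and 79650888 input was at most 1.33 CPM in any empty-vector library. Just outside the end of the interval, TMEM254 (4.72) and ANXA11 (4.81) were as high as the last members SFTPD (3.58) and NUTM2E (4.13), and the next region, at 81296912, was at 0.675. Just below the start, BAMBI and SVIL lay at 0.867 and 0.779.

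In windows of 10 Mb across the genome, of which 301 held at least 10 regions, 50 to 60 Mb ranked 1 (median 3.56), 70 to 80 Mb ranked 2 (3.18), 60 to 70 Mb ranked 3 (3.00) and 30 to 40 Mb ranked 5 (2.88) in empty-vector cells. The window of 40 to 50 Mb ranked 161. In DDC cells the same 4 windows ranked 2, 1, 5 and 3. The highest single regions were an intron of PRKG1 (10.0, 177 bp, printed above), an intergenic region at 52884222 (9.75, 428 bp) and an intron of ADK (9.57, 2009 bp). The lowest were short intergenic regions at 79650888 (0.270) and 79650427 (0.489) and VSIR (0.390). These rest on few read pairs, with at most 1.33 CPM of empty-vector input at both intergenic regions and 5.83 at VSIR.

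GC content split both the members and the other chromosomes. Regions under 40% GC had a median input density of 4.14 in the interval (66 regions) and 1.54 on other chromosomes. From 40 to 45% GC the values were 2.84 and 1.2, from 45 to 50% they were 1.77 and 0.993, and from 50% up they were 1.44 (64 regions) and 0.738. Within each class the members were higher. Promoter regions of the interval had a median of 2.17 (0.913 elsewhere) and the other members 3.34 (1.19 elsewhere).

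Relative to other chromosomes the median density of both marks was raised over the interval in all lines, and less so in SLC6A4 cells. Over input, in empty-vector cells, H3K4me3 had a median log2 ratio of 0.11 in members and 0.13 on other chromosomes. For H3K4me3Q5ser these were -0.08 and 0.11, so neither median over all members was higher than elsewhere. Split by class, H3K4me3 over input was 0.16 at promoter members (0.24 elsewhere) and -0.007 at the other members (-0.33 elsewhere). H3K4me3Q5ser over input was 0.24 (0.45 elsewhere) and -0.91 (-0.73 elsewhere). By stretch H3K4me3 over input was 0.25 from 40 to 50 Mb, 0.24 from 50 to 65 Mb and -0.06 from 65 to 80 Mb. From 40 to 50 Mb the densities with empty vector were 1.04 for H3K4me3 and 0.91 for H3K4me3Q5ser. For H3K4me3 the median relative density was 2.25, 2.22 and 2.27 in empty-vector libraries and 2.31, 2.22 and 2.19 in DDC libraries, which overlap. In SLC6A4 libraries it was 2.05, 2.02 and 2.02, below all others. The lines differed (exact permutation test over 9 libraries, 2-sided, p = 0.0357, 0.0476 adjusted over the 4 such tests). With those alike pairs counted once the exact p was 0.2. With 2 libraries in each line (90 arrangements) that test could not pass 0.05 whatever the values, so it decides nothing. The order of the means of SLC6A4 (2.03, n = 2) and empty vector (2.25, n = 2) was kept.

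H3K4me3Q5ser was lower than H3K4me3 in each line. Its median relative density was 2.02, 1.97 and 1.99 with empty vector, 1.87, 1.86 and 1.84 with DDC, and 1.49, 1.47 and 1.5 with SLC6A4. No group overlapped another, and the lines differed (exact permutation p = 0.00357, the smallest that 3 libraries in each of 3 groups allow, 0.0143 adjusted over 4 tests). Counting alike pairs once gave an exact p of 0.00952. Input of empty vector and DDC could be compared over 6 libraries only, with an exact permutation p of 0.1, which is the smallest possible there. Chromosome 10 outside the interval lay near 1 for both marks in every library (0.885 to 1.08).

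**Figure D2:**
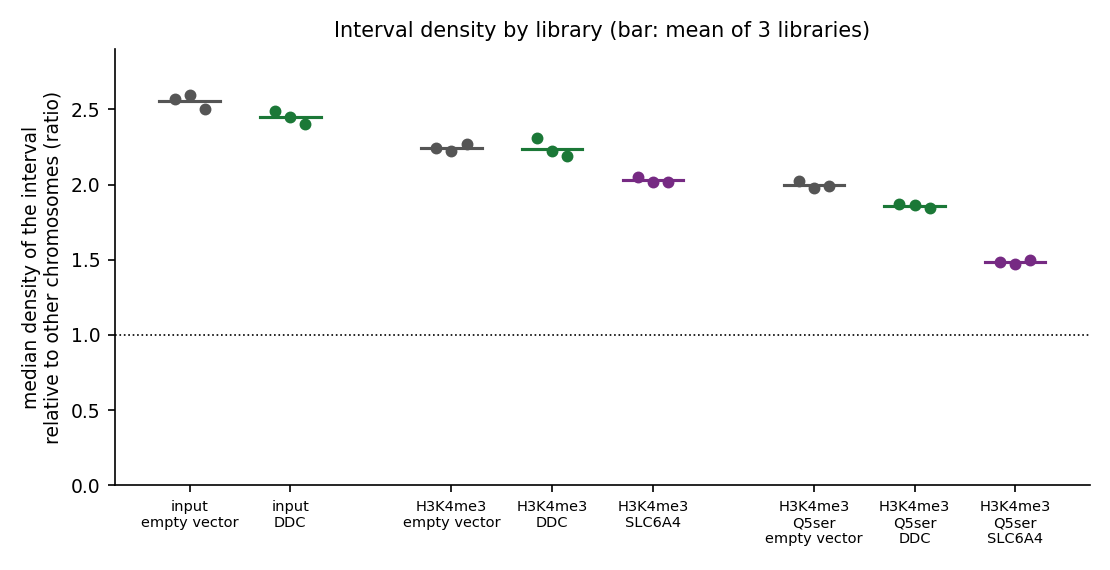
Median density of the 272 regions relative to other chromosomes (y, ratio) for each of the 24 libraries, by assay and line (x). Points are libraries, bars the mean of 3, and the dotted line the level of other chromosomes; SLC6A4 libraries of H3K4me3Q5ser sit between 1.47 and 1.5, below every other library.

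Line differences of single regions were tested with edgeR over all regions, with Benjamini-Hochberg adjustment and a threshold of 0.05. For H3K4me3Q5ser in SLC6A4 against empty vector, 75 of 272 members rose and 163 fell, where 41% of all regions rose and 41.5% fell. The median log2 fold change was -0.20 in members and -0.01 in all regions. At least 2-fold falls were called in 50 members, 18.4% of them, against 7.57% of all regions. For H3K4me3 in the same lines 61 of 267 tested members rose and 138 fell, where 31.9% of all regions rose and 29.6% fell (median -0.20 against 0.02). There 26 members fell at least 2-fold, against 3.36% of all regions.

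This difference moved with GC content. Over the members, Spearman's rho between GC content and the SLC6A4 change was 0.76 for H3K4me3 (267 regions) and 0.68 for H3K4me3Q5ser (272 regions), and on other chromosomes 0.68 and 0.71. These correlations run over regions that share libraries and are descriptions. Members under 40% GC had a median log2 fold change of -1.04 in H3K4me3Q5ser and -0.84 in H3K4me3, against -0.80 and -0.60 in regions of that GC content elsewhere. Members of 50% GC or more had 0.25 and 0.34, against 0.41 and 0.35 elsewhere. For DDC against empty vector rho was 0.02 for H3K4me3 and 0.14 for H3K4me3Q5ser. A GC trend in the counts of a library was removed in an alternative chosen after seeing the data, and many of its values are given beside the results below.

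**Figure D3:**
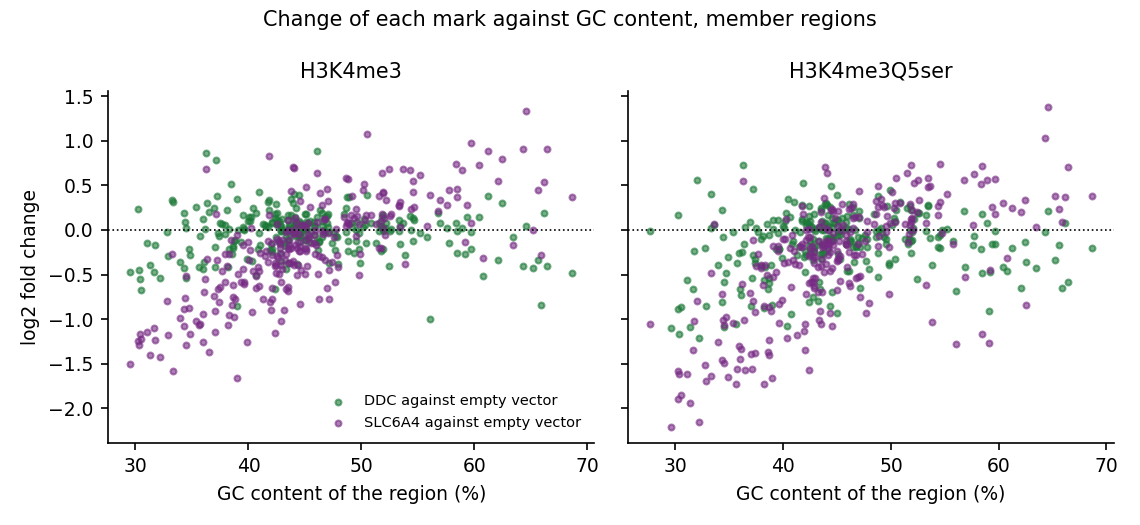
Log2 fold change against empty vector (y) of each member region by its GC content in percent (x), for H3K4me3 (left) and H3K4me3Q5ser (right). Green points are DDC and purple points SLC6A4; the purple points rise with GC content (rho 0.76 and 0.68).

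With GC content corrected, 88 members rose and 120 fell in H3K4me3Q5ser with SLC6A4 and 59 rose and 99 fell in H3K4me3. The medians became -0.09 and -0.06. Of all 19535 regions 7883 rose and 6541 fell in H3K4me3Q5ser under that correction (median 0.03). For H3K4me3 4341 of 18972 rose and 3597 fell (median 0.01). Whether the trend comes from the chromatin or from library preparation was not tested, and an SLC6A4 input was not analysed here.

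The falls gathered between 50 and 65 Mb, a stretch whose bounds were set after the values were seen. Of its 63 regions 54 fell and 3 rose in H3K4me3Q5ser with SLC6A4 (median -0.58), and 53 fell and 4 rose in H3K4me3 (median -0.58). After the GC correction 36 fell and 13 rose (median -0.21), and 35 fell and 6 rose (median -0.16). The median GC content of that stretch was 42.0%, and its input density in empty-vector cells was 3.61. Between 40 and 50 Mb, where input lay near 1, 25 of 51 tested regions rose in H3K4me3 with SLC6A4 and 4 fell (median 0.28), and 24 rose and 1 fell after the correction (median 0.30). In H3K4me3Q5ser 25 rose and 18 fell there. From 65 to 80 Mb 40 of 120 regions rose and 68 fell in H3K4me3Q5ser, and from 30 to 40 Mb 7 of 36 rose and 23 fell.

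**Figure D4:**
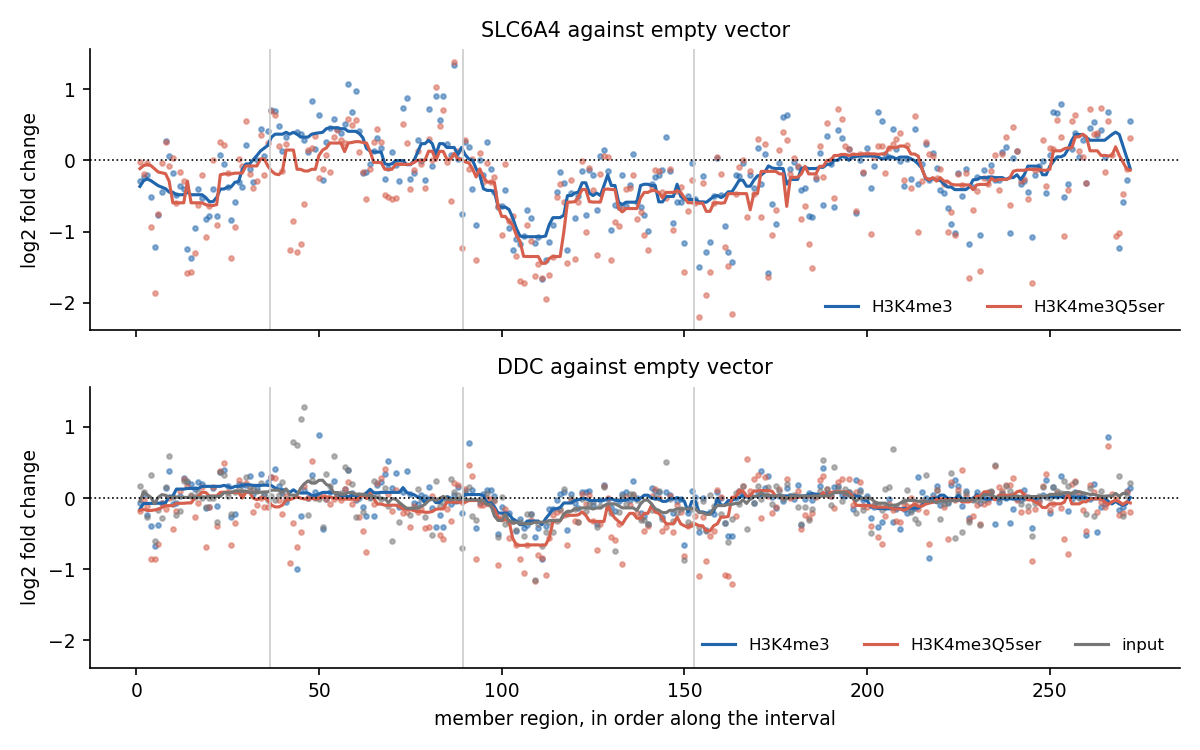
Log2 fold change against empty vector (y) of each member region in order along the interval (x), for SLC6A4 (top) and DDC (bottom). Points are regions, lines a running median of 15 regions, and grey verticals the stretch bounds at 40, 50 and 65 Mb; both marks dip in the third stretch, where the SLC6A4 median was -0.58.

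Differences of DDC from empty vector were smaller. In H3K4me3Q5ser 65 of 272 members rose and 132 fell, where 29.7% of all regions rose and 31.5% fell (median -0.10 against 0.00). With GC corrected 87 rose and 113 fell, and of all 19535 regions 7088 rose and 5011 fell (median -0.05 against 0.05). In H3K4me3 39 of 267 rose and 46 fell, where 8.24% and 9.39% of all regions did, and with GC corrected 50 rose and 29 fell. All 18972 tested regions shifted the same way under that correction, with 1973 rises and 1173 falls. The corrected median was 0.035 in members and 0.041 in all regions. From 50 to 65 Mb 43 of 63 regions fell in H3K4me3Q5ser and 5 rose (36 and 14 with GC corrected). DDC was above SLC6A4 in 154 members and below in 76 for H3K4me3Q5ser, where 38% and 38.9% of all regions were. With GC corrected these counts were 102 and 83, and the median over all regions was -0.0036. For H3K4me3 140 members were higher in DDC and 60 lower, where 29.3% and 30.9% of all regions were.

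Input itself differed between DDC and empty vector. Of 261 tested members 12 rose and 29 fell, where 2.69% and 3.61% of all regions did. From 50 to 65 Mb 18 regions fell and 0 rose (8 and 2 with GC corrected), and from 30 to 40 Mb 6 rose and 0 fell (8 and 0). With GC corrected 18 rose and 12 fell in the interval, and DESeq2 called 17 (5 rose and 12 fell). Of all 18025 tested regions 416 rose and 327 fell with GC corrected. Of the 12 regions with more input, H3K4me3 rose in 7 and H3K4me3Q5ser in 10, with 1 fall in H3K4me3Q5ser. Of the 29 with less input, H3K4me3 fell in 21 and H3K4me3Q5ser in 24, with 1 rise in H3K4me3. Over the members the input change and the mark change had a Pearson's r of 0.42 for H3K4me3 (259 regions) and 0.44 for H3K4me3Q5ser (261 regions), and 0.41 and 0.46 on other chromosomes, as a description.

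PARD3, a cell polarity scaffold, is an example (GRCh38 chr10:34806904-34821032, promoter, 14129 bp). Its input was 450, 454 and 436 CPM with empty vector and 587, 569 and 555 with DDC, its H3K4me3 was 316, 317 and 304 against 398, 408 and 405, and its H3K4me3Q5ser 310, 308 and 310 against 405, 402 and 403. The groups did not overlap in any of these, and the log2 fold changes were 0.36 ± 0.040 (SE), 0.37 ± 0.032 and 0.39 ± 0.015 (edgeR adjusted p = 9.49e-15, 4.73e-28 and 3.99e-46). An intron of CUL2 (a cullin of ubiquitin ligases) rose in the same 3 assays by 0.33, 0.39 and 0.49, and FZD8, a Wnt receptor, by 0.29, 0.19 and 0.21. Between region starts 34806904 and 35639574 input and marks rose together in these 3 regions, which were picked after their values were seen.

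The question whether H3K4me3Q5ser differed beyond H3K4me3 was put to the interaction of mark and line. With DDC it was called up in 18 members and down in 67, where 5.15% and 9.88% of 19529 regions were. With GC corrected it was called in 14 and 61 members, and in 402 and 1558 of all regions. With SLC6A4 it was up in 43 and down in 77, where 14.5% and 14.7% of regions were. That split depended on the scaling: library size alone gave 26 and 110, DESeq2 55 and 58, and the GC correction 56 and 54. Over all regions the GC correction gave 3318 and 2096. The changes of both marks ran together over the members, with a Pearson's r of 0.88 for SLC6A4 and 0.71 for DDC over 267 regions (0.83 and 0.56 elsewhere).

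NRP1, a co-receptor of semaphorins and VEGF, has 1 region over its promoter (chr10:33325002-33343150, 18149 bp, 42.4% GC, input density 5.24). H3K4me3 was 1293, 1283 and 1277 CPM with empty vector, 1424, 1398 and 1407 with DDC and 978, 972 and 969 with SLC6A4, with no overlap of groups. The log2 fold changes were 0.13 ± 0.017 for DDC and -0.40 ± 0.017 for SLC6A4 (edgeR adjusted p = 1.16e-13 and 1.45e-116). With GC corrected the SLC6A4 value was -0.16. H3K4me3Q5ser was 1143, 1149 and 1152 CPM with empty vector, 1286, 1271 and 1284 with DDC and 1170, 1156 and 1139 with SLC6A4. It rose with DDC by 0.16 on the log2 scale and did not pass the test with SLC6A4 (0.01, adjusted p = 0.241). H3K4me3Q5ser relative to H3K4me3 was higher with SLC6A4 by 0.41 ± 0.010 (interaction, adjusted p = 5.50e-120). That SE is smaller than the 0.017 of the H3K4me3 change which the interaction contains. The SE and the p-value of this interaction therefore overstate its precision. With GC corrected H3K4me3Q5ser rose with SLC6A4 as well, by 0.32 (adjusted p = 2.21e-99). Input of the region was 851 CPM with empty vector and 853 with DDC.

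RNA of NRP1 moved the same way as its H3K4me3. It had 3114, 3491 and 3471 normalised reads with empty vector, 4290, 4168 and 4298 with DDC and 2822, 2879 and 2862 with SLC6A4. No groups overlapped. The limma log2 fold changes were 0.35 ± 0.076 and -0.23 ± 0.057 (adjusted p = 0.00223 and 0.00693), and DDC exceeded SLC6A4 by 0.57 ± 0.065 (adjusted p = 1.74e-06). A Pearson's r of 0.89 over the 9 libraries tied it most, among genes with a symbol, to ANAPC16, a subunit of the anaphase-promoting complex.

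DKK1 encodes a secreted antagonist of Wnt signalling, and its region (chr10:52311228-52320120, 8893 bp, 40.8% GC) had an input density of 5.73 with empty vector and 4.38 with DDC. Input was 454, 458 and 457 CPM with empty vector and 354, 350 and 361 with DDC, a log2 fold change of -0.36 ± 0.045 (adjusted p = 6.71e-12). H3K4me3 was 583, 595 and 582 CPM with empty vector, 522, 498 and 503 with DDC and 435, 439 and 442 with SLC6A4 (-0.21 ± 0.026 and -0.42 ± 0.026). H3K4me3Q5ser was 587, 595 and 578, then 525, 531 and 519, then 571, 565 and 557 (-0.16 ± 0.010 and -0.06 ± 0.0083). These 4 changes were called, with empty vector the highest each time. With GC corrected the H3K4me3Q5ser change with SLC6A4 was 0.39, which turns its direction, that of H3K4me3 was -0.10, and that of H3K4me3Q5ser with DDC was -0.07.

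DKK1 RNA went the other way. It was among the 3 most abundant transcripts of the interval (6.0% of its reads with empty vector, after RPS24 with 22% and VDAC2 with 16.2%). The libraries held 15407, 14892 and 14907 normalised reads with empty vector, 17798, 17225 and 18709 with DDC and 15403, 18600 and 19787 with SLC6A4. It rose by 0.25 ± 0.078 with DDC and by 0.24 ± 0.070 with SLC6A4 (adjusted p = 0.0266 and 0.0197), and the SLC6A4 libraries overlapped those of empty vector. The DDC call was lost with the replicate block (adjusted p = 0.0599), with no filter on low values (0.0529), by library size alone (0.147) and without any 1 of the 3 empty vector libraries, and the SLC6A4 call without empty vector replicate 2 or SLC6A4 replicate 2 or 3.

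JMJD1C, a jumonji-domain protein of the family of H3K9 demethylases, has an outer promoter region shared with REEP3 (chr10:63517219-63527143, 42.9% GC) and a region in an intron (chr10:63260787-63271322, 34.7% GC) that holds the inner start printed above. The member region that starts at 63460430 and holds the start not printed is not described here. At the outer region H3K4me3 was 352, 329 and 347 CPM with empty vector, 341, 335 and 341 with DDC and 228, 236 and 220 with SLC6A4 (-0.59 ± 0.034, adjusted p = 4.47e-65 for SLC6A4, -0.37 with GC corrected). H3K4me3Q5ser was 254, 251 and 259, 224, 218 and 226, and 199, 197 and 195 (-0.37 ± 0.018 for SLC6A4, -0.10 with GC corrected). The intron region held more signal and moved further. Its H3K4me3Q5ser was 942, 974 and 936 CPM with empty vector, 692, 678 and 679 with DDC and 478, 474 and 492 with SLC6A4. These are log2 fold changes of -0.48 ± 0.0082 and -0.98 ± 0.0086 (adjusted p = 9.22e-80 and 3.93e-111), with no overlap of groups. With GC corrected they were -0.16 and 0.04, so the SLC6A4 direction turned. Its input fell from 493, 515 and 493 CPM to 410, 392 and 399 with DDC (-0.32 ± 0.043), a call lost with GC corrected (-0.11, adjusted p = 0.129). JMJD1C RNA was 172, 130 and 126 normalised reads with empty vector and 94.5, 119 and 77.6 with DDC (-0.55 ± 0.16, adjusted p = 0.0176, lost without empty vector replicate 1 or DDC replicate 3). With SLC6A4 it was 116, 94.4 and 136 (-0.30, adjusted p = 0.169). REEP3, the neighbour on the other strand, fell in both lines by 0.33 and 0.31 on the log2 scale, calls that several left-out libraries remove (3 and 4 of 6).

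FUT11, a fucosyltransferase, shares a region of 36656 bp, the longest of the interval, with CHCHD1 and ZSWIM8 (chr10:73763997-73800652, 50.3% GC). Its H3K4me3Q5ser was 1497, 1472 and 1479 CPM with empty vector, 1590, 1595 and 1591 with DDC and 1585, 1576 and 1565 with SLC6A4, rises of 0.10 ± 0.0031 and 0.09 ± 0.0026. Its H3K4me3 was 1067, 1082 and 1087, 1108, 1145 and 1103, and 1161, 1184 and 1163 (0.05 and 0.12). With GC corrected both SLC6A4 changes turned (-0.10 and -0.04). FUT11 RNA fell in both lines, from 702, 580 and 600 normalised reads to 397, 356 and 377 with DDC (-0.73 ± 0.097, adjusted p = 8.41e-06) and 339, 382 and 333 with SLC6A4 (-0.83 ± 0.087, adjusted p = 2.19e-06). DDIT4 was the gene of the interval most like it over 9 libraries (r = 0.93). ZSWIM8, a ubiquitin ligase subunit that starts in the same region, rose with DDC (0.50, adjusted p = 0.0117), a call that is lost when empty vector replicate 3 is left out.

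CAMK2G, a calcium/calmodulin-dependent kinase, lies under a region of 15699 bp (chr10:73866026-73881724, 53.4% GC) where the marks parted with DDC. H3K4me3 was 280, 277 and 287 CPM with empty vector and 252, 259 and 249 with DDC (-0.15 ± 0.037, adjusted p = 0.000522). H3K4me3Q5ser was 294, 291 and 291 CPM and rose to 347, 356 and 366 (0.29 ± 0.016, adjusted p = 2.52e-31). The interaction was 0.45 ± 0.040 (adjusted p = 1.38e-21). With SLC6A4 H3K4me3Q5ser was 400, 408 and 410 CPM (0.48 ± 0.014, 0.16 with GC corrected), and H3K4me3 was 301, 287 and 280 (0.04, adjusted p = 0.361, and -0.22 with GC corrected). CAMK2G RNA was 2001, 1977 and 1813 normalised reads with empty vector, 2117, 2255 and 2147 with DDC and 1804, 1739 and 1798 with SLC6A4. Neither line passed the test against empty vector (0.18 and -0.11), and DDC was above SLC6A4 by 0.29 ± 0.067 (adjusted p = 0.00536).

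At the CG-poorer EPC1 start (chr10:32372016-32382505, 35.9% GC; EPC1 is a subunit of the NuA4 histone acetyltransferase complex) H3K4me3 was 497, 487 and 485 CPM with empty vector, 544, 521 and 538 with DDC and 252, 250 and 259 with SLC6A4. H3K4me3Q5ser was 499, 508 and 487, 421, 410 and 417, and 200, 200 and 205. The SLC6A4 changes were -0.95 ± 0.030 and -1.30 ± 0.015 (adjusted p = 1.92e-213 and 2.32e-99), and -0.30 and -0.39 with GC corrected. Its input was 326, 359 and 334 CPM with empty vector and 337, 341 and 349 with DDC, which overlap. The CG-rich EPC1 start (chr10:32339684-32351534, 42.4% GC) had smaller SLC6A4 changes, of -0.40 and -0.29, and of -0.16 and 0.016 with GC corrected, where the H3K4me3Q5ser change did not pass the test (adjusted p = 0.358). EPC1 RNA was low, at 65.8, 95.8 and 89.0 normalised reads with empty vector, and 139, 116 and 162 with DDC (0.73 ± 0.16, adjusted p = 0.00211).

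The CTNNA3 intron region (chr10:66798778-66800465, 29.6% GC) had among the largest falls named here. Its H3K4me3Q5ser was 69.3, 67.6 and 67.6 CPM with empty vector, 32.2, 32.4 and 30.6 with DDC and 15.9, 13.3 and 15.2 with SLC6A4. The log2 fold changes were -1.10 ± 0.040 and -2.21 ± 0.044 (adjusted p = 4.00e-48 and 9.85e-75), and -0.52 and -0.81 with GC corrected. Its H3K4me3 fell from 187, 193 and 178 CPM to 65.1, 68.3 and 63.9 with SLC6A4 (-1.5 ± 0.053, -0.48 with GC corrected). Its input fell from 113, 105 and 116 CPM to 85.7, 80.3 and 86.7 with DDC (-0.41 ± 0.095), a call lost with GC corrected (-0.09, adjusted p = 0.702). CTNNA3 encodes an alpha catenin of cell junctions.

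ANK3 (ankyrin G, an adaptor of membrane proteins) and MYPN (a muscle sarcomere protein) changed in H3K4me3Q5ser with DDC more than in H3K4me3. At ANK3 (chr10:60730550-60736061) H3K4me3Q5ser was 81.1, 82.7 and 78.8 CPM with empty vector and 44.1, 40.6 and 43.0 with DDC (-0.93 ± 0.036), H3K4me3 was 160, 168 and 160 against 169, 175 and 165, and the interaction was -0.98 ± 0.059 (adjusted p = 8.98e-41). Input was 150, 139 and 163 against 164, 148 and 148, which overlap. MYPN (chr10:68087140-68092195) had an interaction of -0.73 ± 0.057, and its input also fell, from 148, 154 and 169 to 131, 122 and 115 CPM (-0.35 ± 0.078). RNA of ANK3 fell with DDC (-0.75 ± 0.17, adjusted p = 0.00293), and so did that of MYPN (-1.10, adjusted p = 0.00948), a call lost without empty vector replicate 3.

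Among the rises with the smallest adjusted p in the SLC6A4 line were GC-rich promoters at the distal end. ZMIZ1 (a transcriptional co-regulator, 58.4% GC) had 362, 358 and 360 CPM of H3K4me3Q5ser with empty vector and 601, 590 and 591 with SLC6A4 (0.72 ± 0.011), and 0.25 with GC corrected. PPIF, the mitochondrial cyclophilin, rose by 0.74 (0.39 corrected), DLG5, a scaffold of cell polarity, by 0.64 (0.40) and ZNF503, a zinc-finger repressor, by 0.56 (0.09). H3K4me3 rose at the same 4 promoters by 0.46, 0.43, 0.39 and 0.67, and with GC corrected the values were 0.08, 0.15, 0.19 and 0.28.

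RNA of genes that start in the interval made up 1.30, 1.33 and 1.36% of the reads with empty vector, 1.27, 1.22 and 1.24% with DDC and 1.27, 1.30 and 1.32% with SLC6A4. The lines differed (exact permutation p = 0.0107, 0.0214 adjusted over 4 tests), with DDC below empty vector. Leaving out DDC replicate 2 raised the exact p to 0.0679. In bulk RNA fewer cells expressing a gene and less RNA per cell cannot be told apart.

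With DDC against empty vector 24 of 182 tested genes rose and 18 fell (limma), where 8.94% and 8.41% of all tested genes did. Scaling by library size alone, which moves the median of all genes by -0.13, gave 11 rises and 33 falls, DESeq2 gave 14 and 11, and leaving out empty vector replicate 3 gave 12 and 12. With SLC6A4 17 of 184 rose and 28 fell, where 10.2% and 9.28% did (19 and 20 without empty vector replicate 1). DDC exceeded SLC6A4 in 25 of 187 genes and was below it in 14, where 6.47% and 6.74% of genes were, and 15 and 24 by library size alone.

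**Figure D5:**
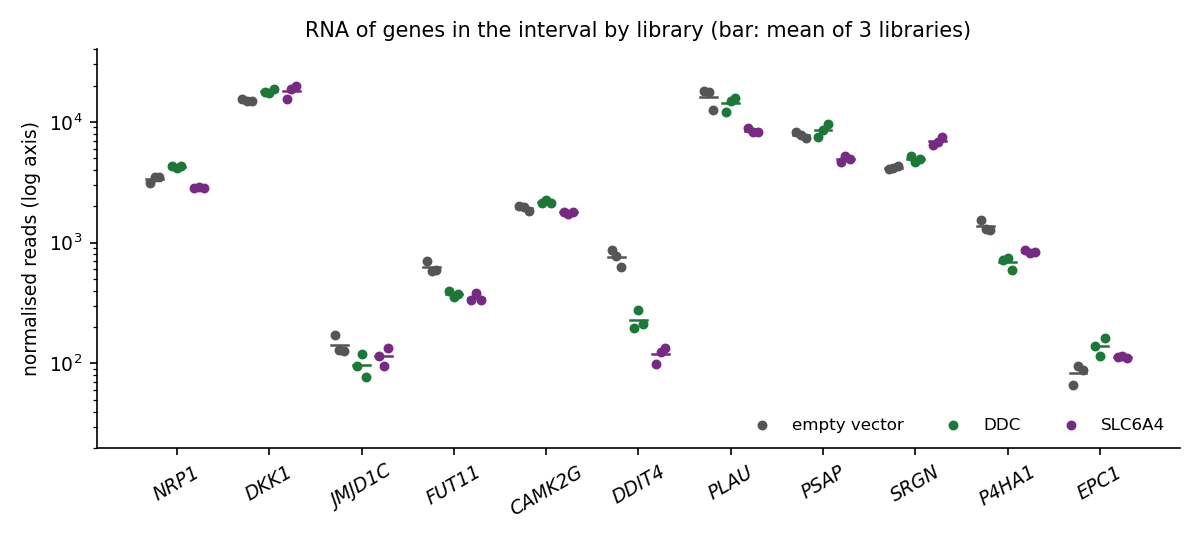
RNA of 11 genes of the interval (x) in normalised reads on a log axis (y), by line. Points are libraries and bars the mean of 3; DDIT4 and FUT11 lie lower in all 6 libraries of DDC and SLC6A4 than in the 3 of empty vector.

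DDIT4, a stress-induced inhibitor of mTORC1, showed among the largest falls. It had 864, 782 and 626 normalised reads with empty vector, 196, 278 and 212 with DDC and 99.5, 125 and 136 with SLC6A4. No groups overlapped, and the log2 fold changes were -1.72 ± 0.13 and -2.65 ± 0.12 (adjusted p = 3.80e-10 and 3.55e-11). At its promoter region, picked here after its RNA was seen, H3K4me3Q5ser was 47.9, 48.5 and 47.3 CPM with empty vector, 41.7, 42.8 and 41.5 with DDC and 56.0, 60.8 and 55.8 with SLC6A4. H3K4me3Q5ser thus fell with DDC (-0.19, edgeR adjusted p = 2.08e-05), as the RNA did, and rose with SLC6A4 (0.26, adjusted p = 1.43e-11), where the RNA fell. H3K4me3 there was 38.2, 38.4 and 40.6 CPM with empty vector and 42.1, 40.5 and 35.1 with DDC, which overlap. Its input was higher with DDC, at 46.0, 50.8 and 46.6 CPM against 35.6, 34.0 and 44.8. No GC-corrected value is given for this region. RNA of P4HA1, a prolyl hydroxylase of collagen, fell from 1528, 1306 and 1273 to 721, 752 and 595 with DDC (-0.99 ± 0.096) and 872, 814 and 839 with SLC6A4 (-0.70 ± 0.072). DEPP1 (-1.45 and -1.09) and DNAJC12, a co-chaperone (-0.92 and -1.15), fell in both lines too. Both comparisons share the empty-vector libraries.

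Some genes of secreted or lysosomal proteins differed between DDC and SLC6A4. PLAU exceeded its SLC6A4 level in the DDC line by 0.76 and PSAP by 0.78, and SRGN was lower there (-0.49). PLAU, the urokinase protease, had 17875, 17547 and 12460 normalised reads with empty vector, 12182, 14970 and 15937 with DDC and 8937, 8234 and 8196 with SLC6A4 (-0.90 ± 0.095 for SLC6A4, adjusted p = 2.45e-06). C10orf55 overlaps PLAU on the other strand and had -0.90, and its reads may not be separable from those of PLAU. PSAP, a precursor of lysosomal saposins, had 8285, 7776 and 7351 with empty vector and 4701, 5208 and 4965 with SLC6A4 (-0.65 ± 0.056). SRGN, a proteoglycan core protein, had 4054, 4125 and 4342 with empty vector, 5197, 4653 and 4973 with DDC and 6480, 6809 and 7541 with SLC6A4. It rose by 0.73 ± 0.059 with SLC6A4 and by 0.25 ± 0.076 with DDC, the latter a call lost without empty vector replicate 1 or 2 or DDC replicate 1.

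Among smaller rises ZWINT, a kinetochore protein, gained 0.36 with DDC and 0.47 with SLC6A4, ADK, adenosine kinase, gained 0.47 with SLC6A4, and DNAJC9, a histone chaperone, gained 0.52 and 0.43. LINC02635, a long noncoding RNA, had 12.3, 15.2 and 19.9 normalised reads with empty vector and 0 in all 3 DDC libraries, where a count of 0 allows up to 3 reads in each. It had 8.37, 8.17 and 8.97 with SLC6A4.

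The other genes were taken by lists of function written with earlier results of these data known, and counted over the tested members. Medians of log2 fold change over all tested genes were 0.01 for both lines. Of 7 chromatin regulators EPC1 rose and JMJD1C fell with DDC (median -0.04), and with SLC6A4 EPC1 rose and ARID5B, a DNA-binding partner of a demethylase, fell (median -0.04). Of 4 transcription factors 0 changed with DDC (median 0.23) and CREM fell with SLC6A4 (median 0.07). Among the zinc-finger genes 0 of 9 changed with DDC (median -0.05) and 1 of 8, ZNF248, fell with SLC6A4 (median -0.01). Of 7 genes of adhesion, polarity and guidance NRP1 and DLG5 rose and ANK3 fell with DDC (median -0.17), and ITGB1 and NRP1 fell with SLC6A4 (median -0.23). Of the kinases and their partners 0 of 8 changed with DDC (median 0.15) and ADK alone of 7 rose with SLC6A4 (median 0.15). The EPC1 call with SLC6A4 was lost in 6 of 13 alternatives (4 of them left-out libraries) and the DLG5 call with DDC in 5 (3 of them). The CREM call was lost in 1, a left-out library.

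Of 6 secreted, Wnt or protease factors SRGN and DKK1 rose in both lines, P4HA1 fell with DDC (median -0.0019), and PSAP, P4HA1, PLAU and FZD8 fell with SLC6A4 (median -0.67). Among 7 cell cycle genes ZWINT rose in both lines (medians 0.08 and -0.06). Of the mitochondrial genes PPIF and SUPV3L1 rose with DDC (2 of 9, median -0.03), and with SLC6A4 TIMM23 and PPIF rose and MRPS16 fell (of 10, median 0.10). Of 8 RNA and ribosome genes DDX21 fell with DDC (median 0.09) and HNRNPH3 rose with SLC6A4 (median 0.05). Of 9 Golgi, trafficking and glycan genes SEC24C rose with DDC, CHST3 rose with SLC6A4, and FUT11 and REEP3 fell in both lines (medians 0.05 and -0.02). Of 4 stress genes DDIT4 fell in both lines and NCOA4 rose with DDC (medians -0.12 and -0.16). The NCOA4 call was lost in 8 of 13 alternatives, those of SUPV3L1 and DDX21 in 5 each and that of CHST3 in 4, with 5, 3, 4 and 3 of these being left-out libraries. The SEC24C call with DDC and the PPIF call with SLC6A4 were lost in 2 each.

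Peaks of H3K4me3 overlapped 200 of the 272 regions (73.5%) by at least 1 bp, against 63.4% of regions elsewhere, and 30 of the 53 regions from 40 to 50 Mb. In CUT&Tag the interval held 23 peaks of the list called up and 233 of the list called not up, so 8.98% of its peaks were up against 13.5% of all peaks in both lists. The median signal of the 233 peaks was 32.9 CPM in control cells, 35.6 with SLC6A4 and 31.3 with SLC6A4 and shTGM2, against 18.3, 19.5 and 18.4 on other chromosomes. These are single libraries and give no test, and peaks of the up list carried no values. The median log2 ratio of SLC6A4 to control was 0.09 (0.10 elsewhere) and that of shTGM2 to SLC6A4 alone -0.12 (-0.08 elsewhere). The peak at FUT11 had 263, 299 and 283 CPM, the larger NRP1 peak 139, 145 and 136 and the peak at the outer JMJD1C start 75.4, 81.6 and 67.8.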

How the data were processed

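The members and the gene lists were chosen with earlier results of these data known. For ChIP and input the authors deposited estimated counts of read pairs per region from featureCounts 2.0.3, per the file headers, with reads of several places split as fractions and a strand setting on regions without strand, which can lower values in duplicated sequence near 46 to 50 Mb. For RNA the authors deposited a normalised signal, gene counts divided by DESeq2 size factors; 100% of values came out as whole reads (within the file's decimals). For CUT&Tag the authors deposited CPM per peak, for peaks called not up only, with 1 library a condition. HISAT2 2.1.0, Bowtie2, MACS2 and GRCh38 are named in the submitters' processing notes. The region table held 0 columns of SLC6A4 input, which was not analysed here, and 8 further CUT&Tag libraries were not used here.

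Estimated counts were rounded and tested with edgeR 4.0.16 (quasi-likelihood, TMM, filterByExpr, 9 libraries a mark, 6 for input, 18 for the interaction of mark and line). RNA was tested with limma 3.58.1 (trend) on log2(value + 1), for genes at 10 or more in at least 3 libraries; fold changes on that scale understate low genes. DDC and SLC6A4 RNA, deposited in separate tables, were compared on the recovered reads with shared size factors. An edgeR test on recovered reads called 48 member genes for DDC, 44 for SLC6A4 and 39 between them. Densities and RNA shares were compared by an exact permutation test over libraries, 2-sided. Adjusted p-values are Benjamini-Hochberg values over all features tested, or over the 4 tests for the permutation tests. CPM of regions are relative to the pairs counted in regions. The edgeR and limma fits were each tested on 1 simulated comparison, with planted 2-fold changes and the same dispersion for all features. There 97.5% of 200 changed regions were recovered for H3K4me3Q5ser (DDC, 19422 regions) and 89.5% of 200 genes for RNA (DDC, 10706 genes). Smaller changes and the fits of H3K4me3, input and the interaction were not simulated.

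Named regions and genes are the 5 that define the interval, the called genes of largest change without overlap of groups (up to 8 a direction), the called regions of smallest adjusted p (up to 4 a direction), the 3 highest and 3 lowest in input, and called list members. Alternatives were DESeq2 1.42.0, library size scaling, other filters and pseudocounts, a replicate block and leaving out each library; counting alike pairs once and a GC correction were chosen after seeing the data.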

Additional observations from a re-analysis of the deposited data

Results flagged for a closer look

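In 5 regions H3K4me3 and H3K4me3Q5ser were both called and moved in opposite directions with DDC, which is why they are listed. That is 1.87% of the 267 tested members, where 0.575% of all regions tested in both marks did so. At EPC1 H3K4me3 rose by 0.13 and H3K4me3Q5ser fell by 0.26 on the log2 scale, and at CAMK2G they moved by -0.15 and 0.29. CCDC7 (0.23 and -0.07), ANXA7 (0.08 and -0.10) and the region of ENSG00000290535 and SEPTIN7P9 (0.22 and -0.12) are the others. The EPC1 fall was -0.0037 with GC content corrected (adjusted p = 0.75), and that of CCDC7 turned to 0.10. The CCDC7 fall was lost with DESeq2 and without DDC replicate 3. The H3K4me3 rises of ANXA7 and of the ENSG00000290535 and SEPTIN7P9 region were each lost in 3 of 12 alternatives, DESeq2 and 2 left-out libraries (empty vector replicate 3 or DDC replicate 1, and empty vector replicate 2 or DDC replicate 3).

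With SLC6A4 3 regions did so (1.12% of members, where 1.7% of all regions did). At EGR2, a zinc-finger transcription factor, H3K4me3 rose by 0.33 and H3K4me3Q5ser fell by 0.53, with an interaction of -0.86. The H3K4me3 rise was lost with DESeq2 and without empty vector replicate 1 or 3 or SLC6A4 replicate 2, and was -0.014 with GC corrected. CCNY-AS1 (-0.31 and 0.02) and CCDC6 (-0.15 and 0.05) went the other way. The H3K4me3Q5ser rise of CCNY-AS1 was lost with DESeq2 and without empty vector replicate 1 or 3 or SLC6A4 replicate 2, and that of CCDC6 without empty vector replicate 2. Both turned with library size alone (-0.033 and -0.00029). The H3K4me3 fall of CCDC6 was lost with GC corrected (-0.093, adjusted p = 0.0572).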

How the results depend on the processing

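Of the counts and densities over the whole interval, 94 of 97 kept their direction, their side of the threshold and, for counts, a value within 1.5 times under alternatives other than leaving out a library, and 115 of 117 did when 1 library was left out. The exceptions were the input calls (17 with DESeq2, 41 otherwise) and the RNA calls for DDC (25 with DESeq2 against 42, and 24 to 38 with 1 library left out). Another was the H3K4me3 density difference of SLC6A4 from empty vector (-0.226 with alike pairs counted once, against -0.217). There too few libraries remained for the test to pass the threshold. The last was the RNA share difference (-0.0514 to -0.0222 percentage points with 1 library left out). With the replicate block the calls were 195, 239 and 229 for H3K4me3Q5ser (DDC, SLC6A4, DDC against SLC6A4), 85, 199 and 200 for H3K4me3, 41 for input, 85 and 120 for the interactions and 42, 44 and 38 for RNA. The block also ended the call of DKK1 RNA with DDC (adjusted p = 0.0599). Same-numbered libraries of different lines did not deviate together within an assay (r from -0.044 to 0.028). For ChIP and input this cannot decide whether the numbers pair libraries, because replicates there differ by little more than sampling noise. Libraries of different assays were not compared in this way.

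Directions that turned with GC corrected include that of the CG-rich EPC1 region in H3K4me3Q5ser with SLC6A4 (0.016), those of the JMJD1C intron region in H3K4me3Q5ser (SLC6A4 0.037, DDC against SLC6A4 -0.19), of DDC against SLC6A4 at ZNF503 in H3K4me3Q5ser (0.021) and ZMIZ1 in H3K4me3 (0.037), and of DKK1 in H3K4me3Q5ser with SLC6A4 (0.39). The same held for the FUT11 region (interaction with DDC -0.011, H3K4me3Q5ser -0.099 and H3K4me3 -0.037 with SLC6A4), CAMK2G (H3K4me3 with SLC6A4 -0.22), the outer JMJD1C region (H3K4me3 with DDC 0.00071), CCDC7 (H3K4me3Q5ser with DDC 0.099) and EGR2 (H3K4me3 with SLC6A4 -0.014). Scaling by library size alone turned H3K4me3Q5ser with SLC6A4 at NRP1 (-0.046), CCNY-AS1 (-0.033) and CCDC6 (-0.00029). Leaving out H3K4me3 empty vector replicate 1 turned H3K4me3 of the outer JMJD1C region with DDC (-0.0432 to 0.0053 over the libraries left out), and DESeq2 the FUT11 region's interaction with SLC6A4 (0.0092). The cause was not tested. Input was the shallowest assay, and short or low regions were least precise in it. The edgeR standard error lay below counting error in 123 and 125 members for H3K4me3Q5ser (DDC and SLC6A4). For H3K4me3 it did so in 17 and 59 members. The interactions were not checked in this way, and that of NRP1 with SLC6A4 has an SE below that of its H3K4me3 change.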
